A study of Mus musculus with 6 samples.

Results

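Chemokines and their receptors were examined in mouse brain samples, 3 labelled as lacking HuR in neurons and 3 as controls. Each was measured on 1 Affymetrix Mouse Gene 2.0 ST array. HuR, encoded by Elavl1, is an RNA-binding protein that attaches to AU-rich stretches of messenger RNA. The genes were chosen by symbol. They are all genes whose symbol starts with Ccl, Cxcl, Ccr, Cxcr or Ackr followed by a digit, together with Cx3cl1, read by a probeset that lists a single symbol. Ccl25 was left out because it lies beside Elavl1. This gave 52 of 22180 genes, of which 34 were bright enough to be tested among 16635 genes. They comprise 18 CC ligands, 13 CXC ligands, 1 CX3C ligand, 10 CC receptors, 6 CXC receptors and 4 atypical receptors.

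Knockout mice were Thy1Cre-ERT2-EYFPHuRf/f, with both Elavl1 alleles floxed, and control mice were Thy1Cre-ERT2-EYFPHuRf/+, with 1 floxed allele. Both groups carried the tamoxifen-inducible Cre recombinase and a yellow fluorescent protein, both driven by Thy1, a promoter used in neurons, and both received tamoxifen at 10 and 11 weeks of age. Total brain was taken at 91 days from mice of either sex, with no sex given per sample. Cells that do not use the Thy1 promoter keep HuR in both groups, and the controls can themselves lose 1 allele in neurons. The labels name no individual animals, and the p-values therefore measure only how these samples spread, which may be technical.

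Chemokines are small secreted proteins that guide migrating cells along a gradient. Their classes are named after the spacing of the first cysteines of the mature protein, and they signal through G-protein-coupled receptors, while atypical receptors bind and remove or transport chemokines without G-protein signalling. In the brain, neurons make the membrane-tethered ligand Cx3cl1 and microglia carry its receptor Cx3cr1, Cxcl12 acts on migrating and mature neural cells through Cxcr4 and Ackr3, and activated microglia and macrophages release inflammatory ligands such as Ccl3 and Ccl4. Many chemokine messenger RNAs carry AU-rich elements.

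The values below are intensities in linear units after quantile normalization, and a log2 fold change is knockout over control on the log2(intensity + 1) scale. As deposited, before this normalization, the 6 arrays had median intensities of 13.4 to 14.6 over all probesets. A gene was tested when its mean log2 level over the 6 arrays was at least 3.28, an intensity of 8.73, which is the 25th percentile over all genes. Elavl1 itself had intensities of 298, 288 and 307 on the knockout arrays and 308, 257 and 369 on the control arrays, a log2 fold change of -0.05 with a 95% confidence interval from -0.39 to 0.29. The groups overlapped, and the value was 0.014 after median centring and 0.058 without both arrays numbered 3, so the whole-brain level of Elavl1 does not check the genotype labels, and knockout here means the libraries labelled so. Whether its probeset reads the floxed part of the gene was not tested. Markers of the labelled tissue were above the limit on all arrays, with Rbfox3, a nuclear protein of neurons, at 326 to 432 in knockout and 299 to 463 in control brain, and P2ry12, a receptor of microglia, at 134 to 208 in knockout and 136 to 264 in control brain. In both groups the array numbered 3 differed from the rest. Xist, a long RNA made from the inactive X chromosome, was at 204 on knockout array 3 and 205 on control array 3, against 5.59 and 5.89 on the other knockout arrays and 4.74 and 5.92 on the other control arrays.

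Across all genes, 0 of 16635 passed an adjusted p of 0.05 in limma (0% of genes tested), so none of the 34 tested chemokine and receptor genes passed. An unadjusted p under 0.05 was reached by 282 genes, 1.7% of those tested. Of these 55% were higher in knockout brain, while the share was 42.1% without the quantile step and 68.6% after median centring. Among the chemokine and receptor genes 1 of 34, Ccl3, was in this class, a share of 2.94%. With same-numbered arrays as pairs the class held 806 genes, or 4.85%, and 2 of the 34, Ccl3 in the higher direction (2.81% of all genes tested) and Ccl27a in the lower (2.03%). Log2 fold changes lay above 0 for 24 of the 34 genes, or 70.6%, where 54.8% of all genes tested did. After median centring 24 of 34 lay above 0 beside 68.6% of all genes, and without control array 1 the count was 18 of 34 beside 52.5%, so the excess over all genes depends on the scaling and on 1 array. The median was 0.051, against 0.013 over all genes tested. The median half-width of the 95% confidence interval was 0.37 on the log2 scale, against 0.33 over all genes tested, and the number of arrays limits the precision. Since whole brain was measured, fewer cells of a type and less RNA per cell cannot be told apart.

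**Figure D1:**
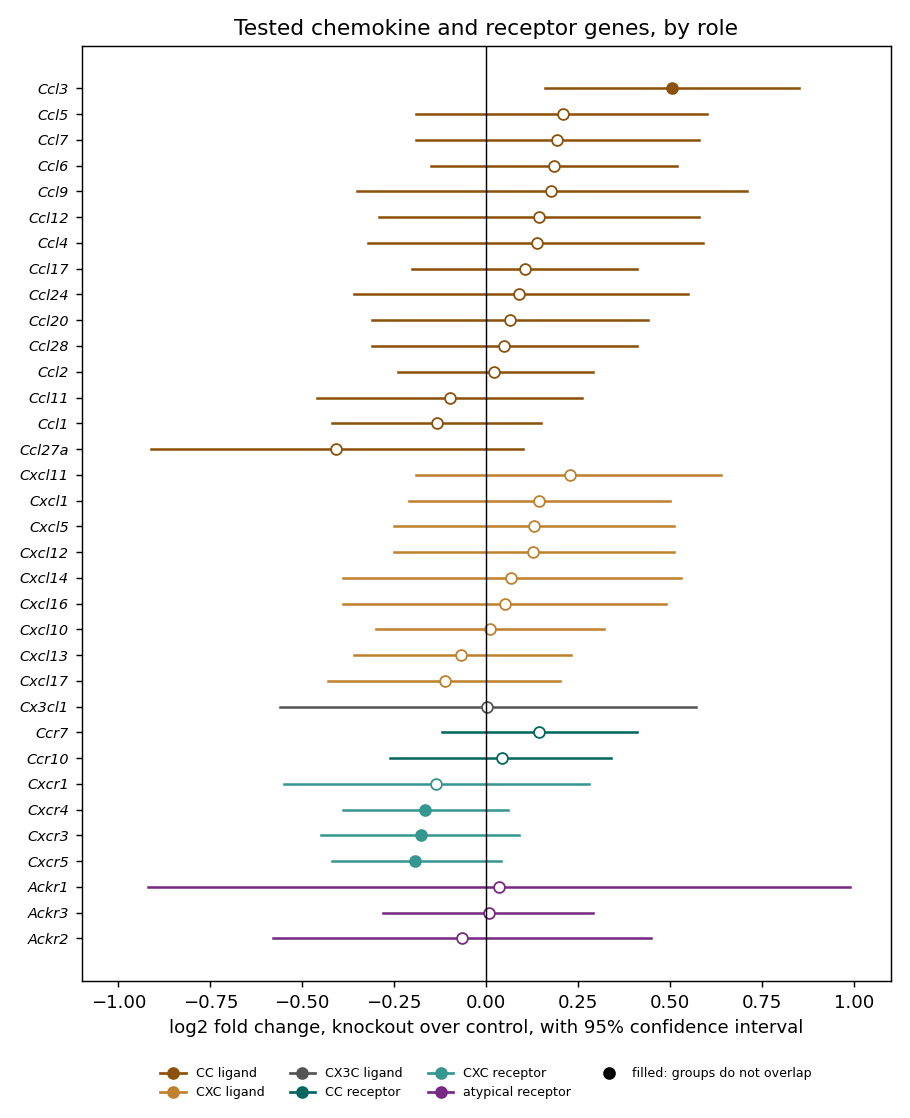
Log2 fold change of knockout over control with its 95% confidence interval (x axis) for each of the 34 tested genes (y axis), coloured by role; filled points are genes whose knockout and control arrays do not overlap. The interval of Ccl3 alone lies clear of 0, and the 4 CXC receptors all lie below 0.

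Ligands lay mostly above 0 and receptors on both sides of it. For the 25 tested ligands the median was 0.091 on the log2 scale, with 20 above 0, and for the 9 tested receptors it was -0.065, with 4 above 0. The ligand median was 0.141 between the arrays numbered 1, 0.045 between those numbered 2 and -0.021 between those numbered 3. In the same pairs the receptor median was 0.06, -0.165 and -0.048. Of all genes tested 54.8% lay above 0, or 68.6% after median centring. The difference between ligands and receptors was not tested, and neither median kept its sign in every pair of arrays.

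Among the CC ligands, 12 of 15 tested genes lay above 0, and on the log2 scale they ran from -0.41 to 0.50 around a median of 0.105. Ccl3, also known as MIP-1 alpha, attracts monocytes and T cells. Its intensity was 15.2, 19.2 and 16.7 on the knockout arrays 1 to 3, against 9.68, 12.9 and 12.7 on the control arrays. The lowest knockout array lay above the highest control array, and the 6 values spanned the deposited array medians. The means were 17.0 ± 2.06 in knockout and 11.7 ± 1.79 in control brain (SD, n = 3 each), a fold of 1.42 with a 95% confidence interval from 1.12 to 1.80. On the log2 scale the fold change was 0.50 with a standard error of 0.15 (limma, unadjusted p = 0.00972, adjusted p = 1). The difference between same-numbered arrays was 0.60, 0.54 and 0.37 on the log2 scale. The log2 fold change was 0.57 without both arrays numbered 3, and ran from 0.383 to 0.581 with each array left out in turn. It was 0.462 with values as deposited, and 0.252 with 16 in place of 1 added to the intensity. Groups did not overlap in 4 of the 34 genes, or 11.8%, where 5.7% of all genes tested did not, and Ccl3 was the 1 among them that was higher in knockout brain (3.14% of all genes tested).

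Because Ccl3 had the largest of the positive values, the 250 bases before its start are shown (RefSeq, GRCm38.p6, chr11:83649379-83649628, minus strand, written 5′ to 3′ on the gene's strand). None of the motifs searched below was in this window, so it holds no capitals.
Ccl3: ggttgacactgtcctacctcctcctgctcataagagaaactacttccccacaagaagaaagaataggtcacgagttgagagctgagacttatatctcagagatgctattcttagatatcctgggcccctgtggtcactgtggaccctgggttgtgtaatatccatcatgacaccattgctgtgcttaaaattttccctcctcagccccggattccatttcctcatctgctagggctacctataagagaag

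Ccl3 lies in a run of neighbouring CC ligand genes on mouse chromosome 11 in the RefSeq table, with Ccl5, Ccl9, Ccl6 and Ccl4. All 5 lay above 0, with log2 fold changes from 0.14 to 0.50 and a median of 0.19. Ccl4, or MIP-1 beta, adjoins Ccl3 and likewise attracts monocytes and T cells. It had intensities of 22.7, 25.8 and 20.5 in knockout brain and 15.3, 22.2 and 26.0 in control brain. The groups overlapped, since control array 3 was the highest of all, and the log2 fold change was 0.14 with a 95% confidence interval from -0.32 to 0.59. Without control array 1 it was -0.066.

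Ccl5, a ligand that recruits T cells and is also called RANTES, had intensities of 40, 29.2 and 25.7 in knockout brain, against 25.5, 25.8 and 29.0 in control brain. Knockout array 1 was the only one well above the rest, and the log2 fold change of 0.21 became 0.033 without it. Ccl6, made by myeloid cells, was at 14.4, 14.6 and 12.8 in knockout and 13.5, 13.3 and 9.80 in control brain. Control array 3 was the lowest, and the log2 fold change of Ccl6 was 0.19, or 0.047 without that array. Ccl9, a further myeloid ligand, ran from 35.7 to 60.8 in knockout and from 32.8 to 50 in control brain, with the lowest value of each group on the array numbered 3.

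The other run of CC ligand genes on chromosome 11 holds Ccl2, Ccl7, Ccl11, Ccl12, Ccl8 and Ccl1, and here 3 of 5 tested genes lay above 0, between -0.13 and 0.19. Ccl2, the main monocyte attractant that acts on Ccr2, had intensities of 17.2, 14.8 and 13.9 in knockout brain and 15.5, 14.8 and 14.7 in control brain. Its groups overlapped almost fully. A log2 fold change of 0.023 was obtained with a 95% confidence interval from -0.24 to 0.29, and it was -0.013 with values as deposited and -0.058 without knockout array 1. Ccl7, another monocyte attractant, had a log2 fold change of 0.19, the eosinophil attractant Ccl11 one of -0.10 and Ccl1 one of -0.13, each with a 95% confidence interval that holds 0.

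Ccl27a, a skin-homing ligand of Ccr10, had the lowest log2 fold change of the 34 tested genes. Its intensity was 35.0, 39.5 and 54.8 on the knockout arrays, against 50.1, 48.7 and 73.6 on the control arrays. The array numbered 3 was the highest of each group, and in each same-numbered pair the knockout array was the lower one, by -0.51, -0.30 and -0.42 on the log2 scale. Its log2 fold change was -0.41 with a standard error of 0.22 (limma, unadjusted p = 0.0995; 0.00384 with pairs, adjusted p = 0.984 with pairs), and it was -0.219 without control array 3, -0.273 without knockout array 1 and -0.591 without knockout array 3. No label states that same-numbered arrays are pairs. Ccl27a is read by 2 single-symbol probesets, and the other had a log2 fold change of -0.22. The deposited values of the probeset used are identical to those of 2 probesets that list several near-identical gene copies at once, so the measurement cannot be assigned to Ccl27a alone.

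**Figure D2:**
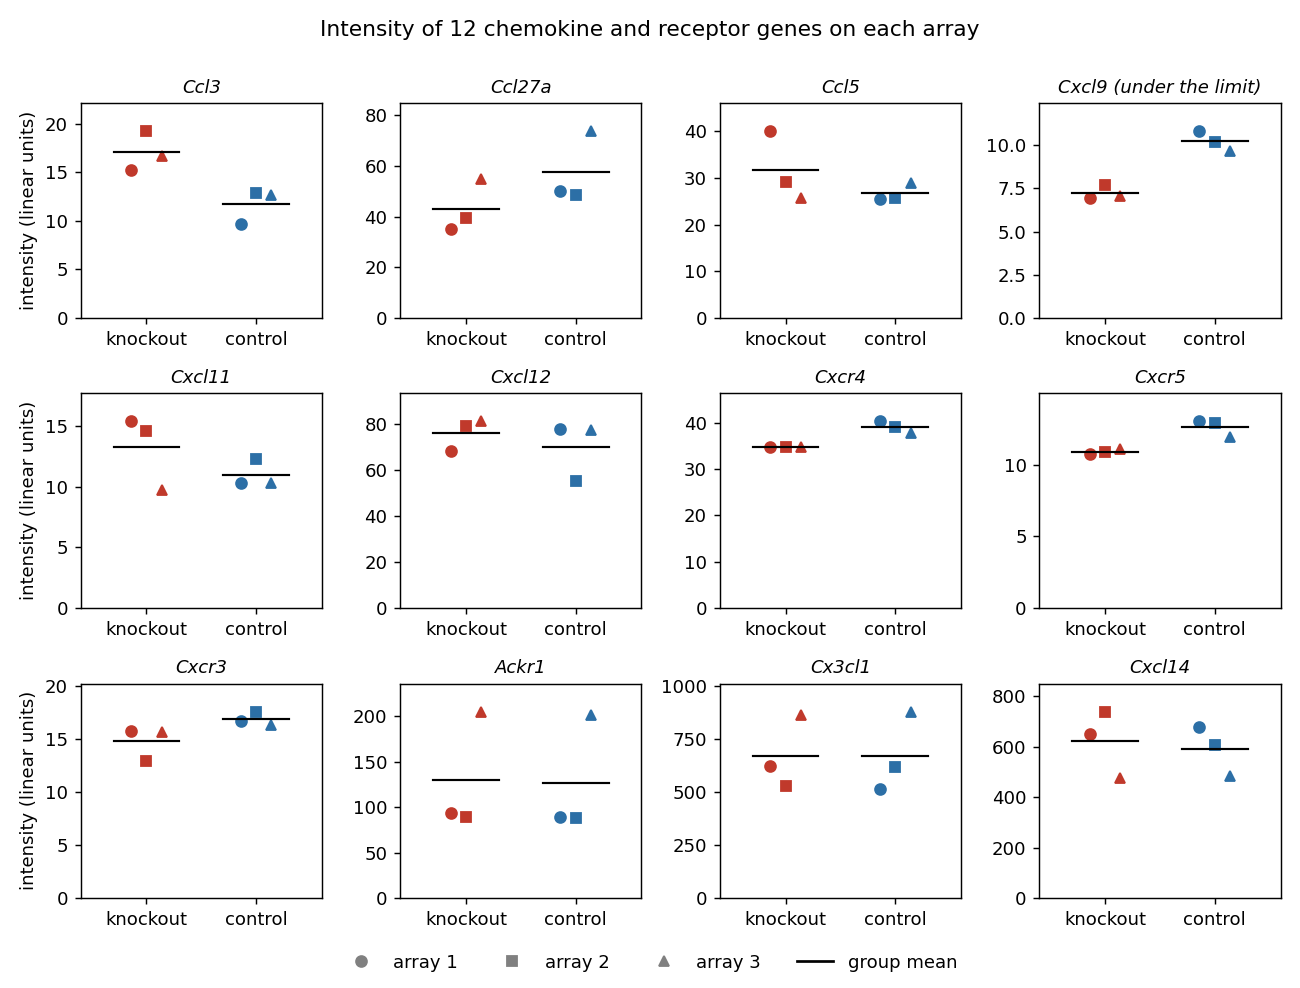
Intensity in linear units (y axes, each from 0) of 12 genes on the knockout arrays (left) and control arrays (right); each point is 1 array, its shape gives the replicate number, and the line is the group mean. The groups are separate for Ccl3, Cxcl9, Cxcr4, Cxcr5 and Cxcr3, while Ackr1 and Cx3cl1 are high and Cxcl14 is low on the arrays numbered 3 of both groups.

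Among the CXC ligands, 7 of 9 tested genes lay above 0, between -0.11 and 0.23 with a median log2 fold change of 0.069. Cxcl12, which keeps neural progenitors and leukocytes in place through Cxcr4, had intensities of 67.9, 78.8 and 80.9 in knockout brain and 77.8, 54.9 and 77.4 in control brain. Control array 2 was the lowest, and without it the log2 fold change of 0.13 became -0.036. Cxcl14, a ligand made by some interneurons among other cells, had intensities of 652, 740 and 476 in knockout brain, against 678, 608 and 483 in control brain. This amounted to a log2 fold change of 0.069 with a 95% confidence interval from -0.39 to 0.53. The transmembrane ligand Cxcl16, which binds Cxcr6, had one of 0.052, with intensities from 30.3 to 41.0 in knockout and from 26.1 to 41.1 in control brain.

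The interferon-induced ligands Cxcl9, Cxcl10 and Cxcl11 lie next to each other on chromosome 5 and share the receptor Cxcr3, and are given one by one. Cxcl11, which RefSeq lists as a transcribed pseudogene in this mouse assembly, had intensities of 15.4, 14.6 and 9.77 in knockout brain and 10.3, 12.3 and 10.3 in control brain. Knockout arrays 1 and 2 were above all control arrays and knockout array 3 was below them, and the log2 fold change was 0.23, or 0.417 without knockout array 3 and 0.116 without knockout array 1. Cxcl10 had intensities of 12.2, 11.4 and 10.2 in knockout brain and 10.0, 13.1 and 10.5 in control brain. Its log2 fold change was 0.011 with a 95% confidence interval from -0.30 to 0.32, and it was -0.033 with values as deposited.

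Cxcl9 had a mean log2 level of 3.26, just under the limit, and so was not among the 34 tested genes. Its intensity was 6.92, 7.67 and 7.07 in knockout brain, against 10.8, 10.2 and 9.68 in control brain. All 3 knockout arrays lay below all 3 control arrays, at intensities under the deposited median of every array. With no brightness limit, over 22180 genes, its log2 fold change was -0.45 with a 95% confidence interval from -0.68 to -0.22 (limma, unadjusted p = 0.00194, adjusted p = 1). The deposited values carry no detection call, so they do not show whether these intensities lie above background.

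The upstream sequences of the neighbours Cxcl9 and Cxcl10 are shown because Cxcl9 was lower on all knockout arrays while the groups of its neighbour Cxcl10 overlapped (RefSeq, GRCm38.p6, 250 bases before the start, minus strand, 5′ to 3′ on the gene's strand). The Cxcl9 window is chr5:92328080-92328329 and the Cxcl10 window is chr5:92348890-92349139. Capitals mark a TATA box match in Cxcl9 and a match to the interferon-stimulated response element core in Cxcl10. Counted from the start, they lie at -195 to -190 in Cxcl9 and at -213 to -204 in Cxcl10. Whether these matches act on the genes was not tested.
Cxcl9: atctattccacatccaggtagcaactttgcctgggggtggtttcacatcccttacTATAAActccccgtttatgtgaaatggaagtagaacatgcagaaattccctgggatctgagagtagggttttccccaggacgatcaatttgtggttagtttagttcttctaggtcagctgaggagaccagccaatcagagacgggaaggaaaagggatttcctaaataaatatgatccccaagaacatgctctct
Cxcl10: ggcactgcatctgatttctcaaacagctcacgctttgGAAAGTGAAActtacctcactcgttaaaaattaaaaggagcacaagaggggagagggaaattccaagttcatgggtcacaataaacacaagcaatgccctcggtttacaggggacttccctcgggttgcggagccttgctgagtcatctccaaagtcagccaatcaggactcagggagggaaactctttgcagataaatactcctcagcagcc

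The remaining CXC ligands showed small values. The neutrophil attractants Cxcl1 and Cxcl5 had log2 fold changes of 0.14 and 0.13, the B cell attractant Cxcl13 one of -0.07 and the mucosal Cxcl17 one of -0.11. The neutrophil attractants Cxcl2, Cxcl3 and Cxcl15 were under the limit, with intensities from 4.74 to 8.23.

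Cx3cl1, the neuronal ligand of microglial Cx3cr1, had intensities of 621, 530 and 861 in knockout brain and 516, 619 and 879 in control brain. The array numbered 3 was the highest in both groups and the other 4 overlapped. The groups differed by a log2 fold change of 0.004 with a 95% confidence interval from -0.56 to 0.57. Its receptor Cx3cr1 was at 139, 125 and 110 in knockout brain, against 124, 150 and 120 in control brain, with a log2 fold change of -0.08.

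Most receptor genes were dim in whole brain. Of 10 CC receptor genes 8 were under the limit, among them Ccr2, the receptor for Ccl2 on monocytes, which was at 5.72, 5.85 and 5.66 in knockout brain and 6.99, 5.96 and 6.32 in control brain. All knockout values of Ccr2 lay below the control values, by little. The tested ones were Ccr7, the lymph node homing receptor, with 13.9, 15.9 and 14.9 in knockout and 12.1, 14.3 and 13.9 in control brain, and Ccr10, whose log2 fold change was 0.04. For Ccr7 the log2 fold change came to 0.14, with a 95% confidence interval from -0.12 to 0.41, and it was 0.075 without control array 1.

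All 4 tested CXC receptors lay below 0 (median -0.171 on the log2 scale), and in 3 of them the groups did not overlap. Groups separated in the lower direction in 2.55% of all genes tested. Cxcr4, the receptor for Cxcl12 on neural and immune cells, had intensities of 34.8, 34.7 and 34.7 in knockout brain, against 40.3, 39.0 and 37.9 in control brain. The knockout arrays were nearly alike and all below the lowest control array. The means were 34.7 ± 0.0904 in knockout and 39.1 ± 1.16 in control brain (SD, n = 3 each), a fold of 0.892 with a 95% confidence interval from 0.764 to 1.04. Its log2 fold change was -0.17 with a standard error of 0.10 (limma, unadjusted p = 0.126, adjusted p = 1). In this fit each gene's variance is drawn toward that of all genes. The value ran from -0.185 to -0.143 with each array left out in turn.

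Cxcr5, the follicle-homing receptor for Cxcl13, had intensities of 10.7, 10.9 and 11.1 in knockout brain and 13, 12.9 and 11.9 in control brain. This gave a log2 fold change of -0.19 with a 95% confidence interval from -0.42 to 0.04. All Cxcr5 values lay below 13.4, the lowest deposited array median, and no detection call shows whether they lie above background. Cxcr3, the T cell receptor for Cxcl9, Cxcl10 and Cxcl11, had intensities of 15.8, 12.9 and 15.7 in knockout brain and 16.7, 17.6 and 16.3 in control brain. Knockout array 2 was the lowest, and the log2 fold change of -0.18 was -0.088 without it. Cxcr1, a neutrophil receptor, was at -0.14 with overlapping groups, while Cxcr2 and Cxcr6 were under the limit. Cxcr2, a neutrophil receptor just under it, had intensities of 8.41, 11.5 and 8.67 in knockout brain and 6.78, 8.83 and 8.50 in control brain, a log2 difference of 0.22, opposite in sign to the 4 tested CXC receptors.

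The Cxcr4 window is shown as that of the separated receptor whose arrays agreed most closely within the knockout group (RefSeq, GRCm38.p6, chr1:128592300-128592549, minus strand, 250 bases before the start, 5′ to 3′ on the gene's strand). Capitals mark a TATA box match on each strand, which overlap. Counted from the start, they lie at -32 to -27 and at -30 to -25.
Cxcr4: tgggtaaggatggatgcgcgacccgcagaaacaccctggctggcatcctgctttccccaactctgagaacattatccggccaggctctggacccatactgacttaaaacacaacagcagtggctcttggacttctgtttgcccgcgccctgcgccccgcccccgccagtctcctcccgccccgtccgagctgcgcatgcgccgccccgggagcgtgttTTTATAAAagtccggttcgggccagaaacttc

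Upstream windows were found in RefSeq for 38 of the 52 genes and searched on both strands for 4 motifs, counting a gene with several starts once when any window matched. The NF-kappaB site, searched as GGG, any 2 bases and TTTCC, was in 6 of the 38 genes, or 15.8%, and in 1.41% of all 32851 windows of the same length. The 6 genes were Ccl20, Ccl9, Ccr3, Cxcl1, Cxcl2 and Cxcl3. The interferon-stimulated response element core, GAAA, any 2 bases and GAAA, was in Cxcl10 and Cxcl14, or 5.26%, against 2.98% of all windows. The gamma-activated site, TTCNNNGAA, was in 4 genes, or 10.5%, against 7.02%, and the TATA box, TATAAA, in 12, or 31.6%, against 12.4%. Shares over genes and over windows are not on the same footing where a gene has several windows.

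Of the atypical receptors, Ackr1, which carries chemokines across the walls of small veins and is also found on red blood cells, had intensities of 93.4, 89.4 and 205 in knockout brain, against 89.6, 88.4 and 201 in control brain. Its values were alike between the groups and high on the array numbered 3 of each. Its log2 fold change was 0.035 with a 95% confidence interval from -0.92 to 0.99, and 0.038 without both arrays numbered 3. Ackr3, the scavenger receptor for Cxcl12, had intensities of 29.8, 28.3 and 24.6 in knockout brain and 28.3, 29.0 and 24.8 in control brain. Its log2 fold change was 0.007, within a 95% confidence interval from -0.28 to 0.29, and -0.003 with values as deposited. Ackr2, a scavenger of inflammatory CC ligands, was at 34.5 to 43.9 in knockout and 27.5 to 49.2 in control brain, and Ackr4 was under the limit.

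A number of genes followed the arrays numbered 3. In 11 of the 34 genes, or 32.4%, both of these arrays lay outside the range of the other 4, where 44% of all genes tested did. They were the highest for 4 genes, Ackr1, Cx3cl1, Ccl11 and Ccl27a (23.4% of all genes tested), and the lowest for 7, Cxcl14, Cxcl16, Ackr3, Ccl2, Ccl6, Ccl9 and Ccl12 (20.6%). Parts of several marker lists moved with these genes. Of 8 endothelial markers, 6 were highest on both arrays numbered 3. Itm2a, at 264 and 277 there against 245 to 300 on the others, was not. Nor was Ly6c1, which was under the limit, at 5.35 and 6.34 there against 4.7 to 5.9 on the others. The summed intensity of 8 endothelial markers was 719 on knockout array 3 and 709 on control array 3, against 430 and 470 on the other knockout arrays and 546 and 471 on the other control arrays. Flt1, a growth factor receptor of endothelium, was at 98 and 98.6 on the arrays numbered 3, against 22.6 to 31.2 on the others. Of 8 neuronal markers, 6 were highest there, and Map2 and Nefl were not. Their sum was 15300 on both arrays numbered 3, against 11000 and 10700 on the other knockout arrays and 10200 and 10600 on the other control arrays. In the other direction, 8 of 11 microglial and 7 of 8 meningeal fibroblast markers were lowest on both arrays numbered 3. So were 7 of 10 monocyte and neutrophil markers, of which 1 was highest there. The same held for 4 of 7 astrocyte and 3 of 8 border macrophage markers. The microglial sum was 899 on knockout array 3 and 926 on control array 3, against 1200 to 1300 on the others, and the fibroblast sum was 613 and 502, against 1120 to 1420. The part of these markers in the values of the 11 genes was not tested.

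**Figure D3:**
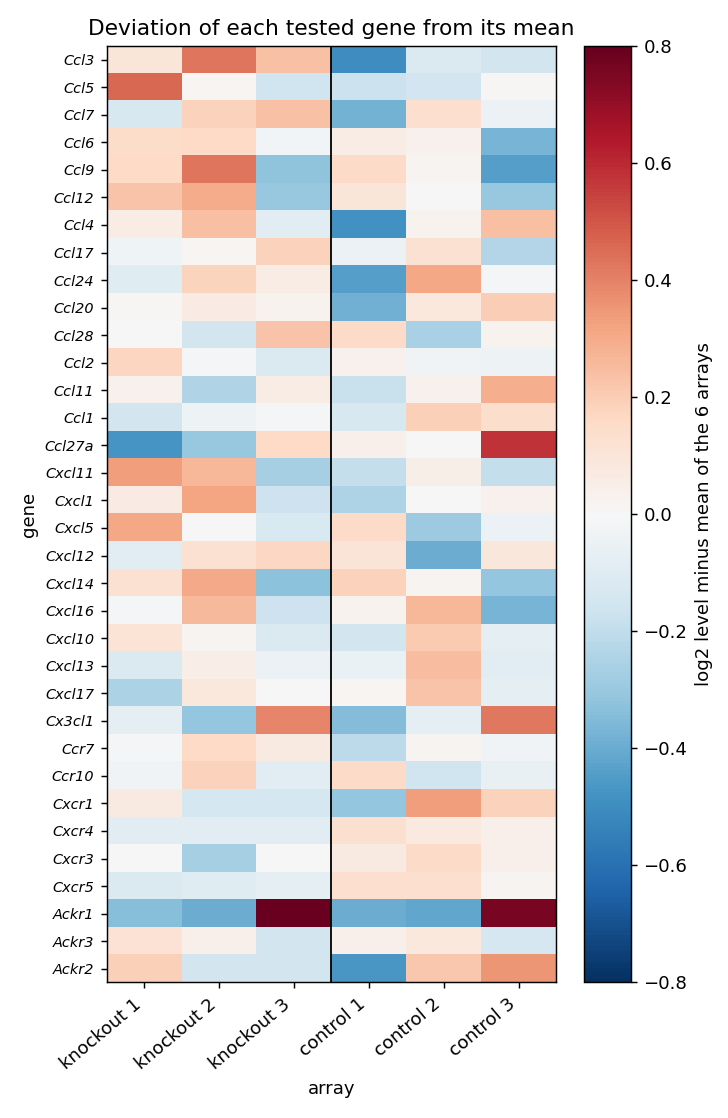
Log2 level of each tested gene (rows, ordered by role and fold change) minus its mean over the 6 arrays, for the knockout arrays (left) and the control arrays (right); red is above and blue below the mean. Ackr1 and Cx3cl1 are above their mean on the arrays numbered 3 alone, and Ccl3 is above its mean on all knockout arrays.

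Genes that work beside these ligands and receptors showed no adjusted call either. Of 9 measured chemokines and receptor-like proteins outside the symbol rule, 7 were tested, 2 lay above 0 and 0 had an unadjusted limma p under 0.05; the T cell chemokine Xcl1 was at 0.16, the receptor Gpr35 at -0.17 and the Xcl1 receptor Xcr1 at -0.14. Among 24 measured genes of receptor signalling, 23 were tested, 17 lay above 0, and 1 had an unadjusted p under 0.05 in the higher direction and 0 in the lower (0.932% and 0.763% of all genes tested). That gene was Pik3r5, a regulatory subunit of the phosphoinositide kinase used by these receptors. It had intensities of 21.6, 22.6 and 23.0 in knockout brain and 16.8, 19.8 and 18.2 in control brain, with no overlap and a log2 fold change of 0.28. Arrb2 of the same list also separated in the higher direction, as did 3.14% of all genes tested. Grk5, a kinase that desensitises such receptors, was at 0.26, and with same-numbered arrays as pairs it was a further gene of the list under 0.05 (limma, unadjusted p = 0.121, or 0.0213 with pairs). With pairs, 2.81% of all genes tested were under 0.05 in the higher direction.

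Of 13 tested inducers of chemokines and members of the NF-kappaB pathway, 7 lay above 0 and 0 had an unadjusted p under 0.05 in limma. Tumour necrosis factor, Tnf, was at 13.2, 12.8 and 14.1 in knockout brain, against 11.0, 12.2 and 10.9 in control brain, a log2 fold change of 0.22 without overlap. The NF-kappaB subunit Nfkb2 was lower on all knockout arrays, at 24.0, 15.7 and 24.2 against 26.8, 30.7 and 26.3 in control brain. Its log2 fold change was -0.40. Of the 13, Tnfrsf1a also separated in the higher direction, at 0.154, and Irf1 in the lower, at -0.144. Groups separated in the higher direction in 3.14% of all genes tested and in the lower in 2.55%. Of 9 RNA-binding proteins that act on chemokine messenger RNAs, 6 lay above 0 and 0 had an unadjusted p under 0.05. Zc3h12a, an endonuclease that degrades inflammatory messenger RNAs, was at -0.25.

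Markers of cells that make or answer to chemokines overlapped between the groups in their summed intensity, and none of the measured markers was listed at 0. The sum of 11 microglial markers was 899 to 1260 in knockout and 926 to 1300 in control brain, with 6 of 11 above 0 and a median log2 fold change of 0.015. The sum of 8 border macrophage markers was 143 to 199 in knockout and 135 to 174 in control brain, with 7 of 8 above 0, and Mrc1, the mannose receptor, at 0.40. The sum of 10 monocyte and neutrophil markers was 89.0 to 200 in knockout and 98.2 to 118 in control brain. Its highest array was knockout array 1, where the neutrophil protein S100a8 was at 75.6, against 25.4 and 7.12 on the other knockout arrays and 10.4 to 22.2 in control brain. That array also had the highest Ccl5. For T and natural killer cells, 5 of 9 measured markers passed the limit, the sum was 97.7 to 105 in knockout and 92.5 to 103 in control brain, and Cd3e, a chain of the T cell receptor complex, was at 8.71 to 8.82 in knockout and 7.6 to 9.42 in control brain, near the limit. The sum of 6 B and plasma cell markers was 244 to 292 in knockout and 212 to 345 in control brain. The part of these cells in the values of Ccl3 and Ccl5 was not tested. The sums of meningeal fibroblast, choroid plexus and astrocyte markers also overlapped between the groups, as did the 1 measured red blood cell marker, Slc4a1. Oligodendrocyte markers had the lowest median of the marker lists, -0.193, with 1 of 7 above 0. Opalin, Cldn11, Mal and Mog were lower on all knockout arrays than on any control array, as were 2.55% of all genes tested. The summed intensity of all 7 oligodendrocyte markers was 3820 to 4010 in knockout and 3900 to 4570 in control brain. Opalin, an oligodendrocyte protein, was the 1 gene of all marker lists with an unadjusted limma p under 0.05, at a log2 fold change of -0.58. Over all genes tested, 0.763% were under 0.05 in the lower direction. With same-numbered arrays as pairs, Mrc1, S100a9 and Col3a1 also came under an unadjusted 0.05 in the higher direction and Fcrls and Slco1a4 in the lower. Their limma adjusted p with pairs was 0.984 each. Over all genes tested, 2.81% were under an unadjusted 0.05 with pairs in the higher direction and 2.03% in the lower.

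The 18 genes under the limit had intensities from 3.91 to 11.5 and log2 differences from -0.45 for Cxcl9 to 0.22 for Cxcr2. Cxcr2 and Ccr6 had mean log2 levels of 3.28 and 3.27 just under the limit, and Ccl24, Ccl1 and Ccl17 just above it had 3.37, 3.39 and 3.42.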

How the data were processed

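Total brain RNA of 3 knockout and 3 control samples was measured on 1 array each (150 ng of RNA, TRIzol extraction and WT Plus labelling, per the labels' protocols). The authors deposited 1 table of intensity, in linear units, with 41340 probesets. The submitters' processing notes name MAS5, whose version and settings were not given in the sources used here. Depth has no counterpart on arrays, and their number limits the precision.

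Values were taken as log2(intensity + 1). Array medians differed by 0.12, above the limit of 0.1 set for quantile normalization, which was applied. Of 25335 annotated probesets, 23521 list 1 symbol and 1814 several, and 16005 are unnamed here. A gene with several probesets took the one of highest mean, which gave 22180 genes, and the 5545 that fell under the 25th percentile were not tested. Symbols of all 52 genes matched RefSeq (GRCm38.p6) by gene identifier, and neighbours were genes closer than 1 Mb. The groups were compared with limma 3.58.1 in R 4.3.3 (lmFit and eBayes, two-sided, Benjamini-Hochberg adjustment over all genes tested), tested on simulated data. Figures used matplotlib 3.10.9 in Python 3.11.15. 0 columns of per-sample values were not used.

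Deviations from group means correlated at 0.31, 0.37 and 0.75 for numbers 1, 2 and 3, all above 0.1, so same-numbered arrays were taken as pairs in an alternative fit. No label states this pairing, and numbers 1 and 2 correlated as well when crossed (0.37 and 0.40). The genes and lists were chosen with earlier results of these data known. Described with values on each array were a panel of 15 genes by role (14 of them among the 52, the other not analysed here), all tested genes whose groups did not overlap and the 8 with the smallest p. Of other lists, some genes with the smallest p were named. Cd3e, Xcr1, Rbfox3, P2ry12, Itm2a, Ly6c1, Map2, Nefl and the genes called only with pairs were named after they had been seen. The array values of Cxcl9, Cxcr2, Flt1 and S100a8 were likewise given after they had been seen. The alternatives were other normalizations, brightness limits, pseudocounts, probeset rules, variance models, array weights, pairs and arrays left out.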

Additional observations from a re-analysis of the deposited data

How the results depend on the processing

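No gene passed the adjusted threshold in limma under any of the 16 alternatives, and the median over the chemokine and receptor genes stayed above 0, from 0.022 to 0.082, as did that of all genes (0.006 to 0.055): after median centring the medians were 0.074 and 0.055. The count at an unadjusted p under 0.05, 1 of 34, was 2 of 52 with no brightness limit, 0 of 11 in the upper 50% of genes (where Ccl3 was not tested), 3 with array weights, 2 with same-numbered arrays as a replicate block, 3 without both arrays numbered 3, and 1 to 3 with each array left out in turn: 3 without knockout array 3 and 2 without control array 1. The counts over all genes were 465 of 22180, 88 of 11090, and 755, 806 and 854 of 16635 in the first 5 of these settings. They were 463 without knockout array 3 and 323 without control array 1, against 282 of 16635 in the comparison above. With the block Ccl27a and, in the other lists, Grk5, Mrc1, S100a9, Fcrls, Col3a1 and Slco1a4 passed an unadjusted 0.05 and none the adjusted threshold. Genes above 0 numbered 8 of 11 in the upper 50%, where 55.8% of all genes lay above 0. With an array left out they numbered 18 to 22 of 34, beside 51.6% to 55.2% of all genes. Genes whose groups do not overlap numbered 1 of 11 in the upper 50% (4.1% of all genes there) and 12 without both arrays numbered 3 (34.7% of all genes). With an array left out they numbered 4 to 11: 7 without knockout array 1, 8 without control array 1 and 11 without knockout array 3. In these settings 11.3%, 13.5% and 18% of all genes did not overlap, against 5.7%. The log2 fold change of Elavl1 was 0.014 with arrays centred on their median, 0.025 with array weights, 0.058 without both arrays numbered 3, and -0.18 to 0.08 with an array left out. Of 279 values of the 18 tested named genes, 253 kept their sign and 26 turned it. With array weights Ackr1 was at -0.003, Cx3cl1 at -0.01 and Cxcl16 at -0.014; with values as deposited Ackr3 was at -0.003, Ccl2 at -0.013 and Cxcl10 at -0.033; without both arrays numbered 3 Cxcl16 was at -0.025. With an array left out Ackr1 ran from -0.351 to 0.424, Ackr3 from -0.06 to 0.084, Ccl2 from -0.058 to 0.086, Ccl4 from -0.066 to 0.296, Cx3cl1 from -0.191 to 0.217, Cxcl10 from -0.06 to 0.119, Cxcl12 from -0.036 to 0.212, Cxcl14 from -0.067 to 0.251 and Cxcl16 from -0.121 to 0.197. The causes were not tested.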

Other observations

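The chemokines Ccl19 and Ccl21, which guide T cells and dendritic cells to lymph nodes, and the skin-homing ligand Ccl27 exist in mice as near-identical gene copies on chromosome 4. They are read by 33 probesets whose annotation lists several symbols, which belong to no single gene and stood outside the comparison. The 9 probesets of the Ccl21 copies had intensities of 13.9 to 34.3, 16.2 to 42.0 and 19.8 to 44.4 on knockout arrays 1 to 3, against 83.6 to 253 on control array 1, 22.0 to 47.1 on control array 2 and 47.4 to 122 on control array 3. Control arrays 1 and 3 were high, while control array 2 was close to the knockout arrays. Whether the animals carry the same copies of these genes was not tested, so the values below need not reflect the genotype at Elavl1. Their log2 fold changes ran from -1.55 to -1.38, with a standard deviation between control arrays of 0.863 to 1.23, against 0.159 to 0.262 between knockout arrays. A standard deviation between control arrays above 0.863 was found in 0.331% of the genes tested. In a separate limma fit over 8815 probesets without exactly 1 symbol, the unadjusted p of these 9 ran from 0.0127 to 0.0471 and each adjusted p was 1, while 3.22% of all 8815 had an unadjusted p under 0.05. The groups did not overlap in 8 of the 9, lower in knockout brain, as in 4.11% of all 8815. Of the 9 probesets, 5 patterns of values are distinct, since several hold identical values.

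Among the 11 probesets of the Ccl27 copies, 1 that lists 5 symbols was also high on control arrays 1 and 3 alone, with 50.5, 42.4 and 58.5 in knockout brain and 225, 41.2 and 155 in control brain. The other 10 had log2 fold changes from -0.41 to 0.01. The 13 probesets of the Ccl19 copies ran from -0.19 to 0.26 and did not separate the arrays in this way.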
